A study of Mus musculus with 2 samples.

Results

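The 8 genes described here belong to the interleukin-6 (IL-6) family and its STAT3 pathway, and were followed by cell class in control and IL-1β-treated organoids: the ligands Il6, Lif and Il11, the receptor genes Il6ra, Il6st and Osmr, the transcription factor gene Stat3 and its feedback inhibitor Socs3. They were taken by symbol, and all 8 were among the 27998 genes counted, each with UMIs in both libraries. A UMI is a tag that marks 1 captured RNA molecule. The organoids grew for 2 weeks in Matrigel from Tomato-labelled alveolar type 2 (AT2) cells of tamoxifen-treated SPCCreERT2;R26RtdTomato mice (C57BL/6), a line in which the surfactant gene Sftpc drives the inducible Cre, together with cultured lung stromal cells depleted of CD31, CD45 and EpCAM-positive cells. A single 10x 3′ library came from PBS-treated (control) and 1 from IL-1β-treated co-cultures, so treatment and library cannot be told apart and no test between conditions was possible. IL-1β is an inflammatory cytokine. The culture time of 2 weeks is that of the sample records, whereas the study's legend for this experiment gives a later day of isolation.

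IL-6 family cytokines bind a ligand-specific receptor chain and signal through a shared chain, gp130, the product of Il6st. Il6ra encodes the IL-6 receptor and Osmr the oncostatin M receptor chain, and leukemia inhibitory factor (LIF) and IL-11 use the receptors encoded by Lifr and Il11ra1. Janus kinases bound to gp130 phosphorylate STAT3, which enters the nucleus and switches on genes that include Socs3. SOCS3 protein then binds gp130 and the kinases and dampens the signal, so that Socs3 RNA is widely used as a readout of the pathway.

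The control library held 2101 barcodes with a median of 14613 UMIs, and the IL-1β library 3066 with a median of 11496.5. Clustering without the 8 genes gave 1285 control and 2580 IL-1β epithelial cells, and 796 and 478 stromal cells. AT2-like clusters, in which the 9 AT2 markers summed to between 85238 and 131398 CPM, held 963 control and 1783 IL-1β cells. Of these, 946 control cells lay in cluster E0 and the IL-1β cells in E1 (784), E2 (528) and E3 (471). Cluster E5, 311 IL-1β cells and no control cell, was DATP-like (damage-associated transient progenitors, a state with Cldn4, Krt8 and Ndrg1). Its AT2 markers still summed to 70331 CPM, nearer to the AT2-like clusters than to the 32980 CPM in the IL-1β cells of cluster E4. Among the clusters high in AT1 (alveolar type 1) markers, E6 held 259 control cells and E4 403 IL-1β cells. E4 was also led by the DATP markers Cldn4 and AW112010, and the pair is therefore given by cluster number. The 8 DATP markers summed to 2028 CPM in E6 and 3174 CPM in the IL-1β cells of E4, and the AT1 markers to 21316 and 13223 CPM. E4 also held 18 control cells, which were left out of the comparison. Their DATP markers summed to 4975 CPM, so cells with these markers were not absent from the control. At least 95% of cells came from a single library in 17 of 20 clusters. Levels are UMIs per 1000000 UMIs of the class (CPM) with exact Poisson 95% intervals, and ratios are IL-1β over control with exact conditional binomial 95% intervals. Both cover counting error only. A gene was called higher or lower when its ratio was at least 2-fold with an interval that left out 1, among genes with at least 20 UMIs over both libraries in the class.

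Il6 and Lif were largely stromal transcripts in both libraries, and Il11 in the IL-1β library. In the control library 91.5% of Il6 UMIs, 83.9% of Lif UMIs and 52.0% of Il11 UMIs came from stromal cells, which held 41.4% of all UMIs. The control stromal level of Il11 overlapped that of cluster E6 (3.76 CPM) in its interval. In the IL-1β library the stromal cells held 23.4% of all UMIs, and 90.4% of Il6, 78.8% of Lif and 89.4% of Il11 UMIs. All 3 ligands were called higher in IL-1β stromal cells, and they were the only members called there (3 of 8 higher, 0 lower, beside 5.11% of 12846 tested genes higher and 12.8% lower). The median log2 ratio of the 8 genes was -0.07, beside -0.32 over all tested genes. The 9 AT2 markers summed to 4590 CPM in control and 6349 CPM in IL-1β stromal cells, beside 130759 and 102748 CPM in AT2-like cells. The 6 macrophage markers summed to 29.8 CPM in control and 18.2 CPM in IL-1β stromal cells, where Ptprc and Adgre1 were at 0, and the 4 endothelial markers to 2.51 and 25.4 CPM, with Cdh5 and Cldn5 at 0 in the control. Of 4 mesothelial markers, Wt1 and Lrrn4 were at 0 in both libraries.

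The 3 ligand genes were all called higher in IL-1β stromal cells, although their levels differed in order between stromal clusters. Their promoters are shown as the 250 bases before the RefSeq transcription start on GRCm38.p6, 5′ to 3′ on the gene's strand. Capitals mark matches to the AP-1 motif TGANTCA or to the NF-κB consensus, both strands searched. Il6 lies on chr5:30012864-30013113 (plus strand), Lif on chr11:4257318-4257567 (plus) and Il11 on chr7:4778142-4778391 (minus).
Il6: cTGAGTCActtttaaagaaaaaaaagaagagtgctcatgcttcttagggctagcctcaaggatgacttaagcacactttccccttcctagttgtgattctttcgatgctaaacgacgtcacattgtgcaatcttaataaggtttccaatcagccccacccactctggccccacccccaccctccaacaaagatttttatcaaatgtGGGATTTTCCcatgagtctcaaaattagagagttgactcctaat
Lif: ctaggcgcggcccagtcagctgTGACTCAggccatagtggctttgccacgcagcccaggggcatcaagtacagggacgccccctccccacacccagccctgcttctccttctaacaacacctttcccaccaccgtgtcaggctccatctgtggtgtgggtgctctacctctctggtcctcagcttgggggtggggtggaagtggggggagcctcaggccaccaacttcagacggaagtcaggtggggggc
Il11: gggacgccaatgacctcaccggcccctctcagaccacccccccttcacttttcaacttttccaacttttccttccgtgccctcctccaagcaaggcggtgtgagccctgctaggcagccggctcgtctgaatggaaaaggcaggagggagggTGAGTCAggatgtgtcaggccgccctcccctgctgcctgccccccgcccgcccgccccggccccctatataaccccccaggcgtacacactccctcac
The Il6 promoter held an AP-1 match at its far end, with its first base at position -249, and an NF-κB match, GGGATTTTCC, at -44, counting -1 as the base before the start site. The Lif and Il11 promoters each held 1 AP-1 match, at -228 and -98, and no NF-κB match, and no matches overlapped. Of 32851 promoters of this length, 6.75% held the AP-1 letters and 3.9% the NF-κB consensus. Il11 has a second RefSeq start further upstream (promoter chr7:4782858-4783107), whose 250 bases held none of the motifs, and 3′ counts do not show which start was used. These matches describe the letters only. In the GENCODE annotation of GRCm38, whose starts can differ from those of RefSeq, the genes span chr5:30013114-30019981 (Il6), chr11:4257557-4272514 (Lif), chr7:4772373-4782859 (Il11), chr3:89864059-89913196 (Il6ra), chr13:112464070-112510086 (Il6st), chr15:6813577-6874969 (Osmr), chr11:100885098-100939540 (Stat3) and chr11:117966079-117970047 (Socs3).

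Il6 encodes IL-6, the founding member of the family. In stromal cells its level was 62.2 CPM (58.1 to 66.6, 843 UMIs) in the control and 252 CPM (242 to 263, 2397 UMIs) with IL-1β, a ratio of 4.06 (3.75 to 4.39). After thinning every cell to 4500 UMIs, Il6 was detected in 8.29% of control and 25.5% of IL-1β stromal cells, and in 1.66% and 3.14% of AT2-like cells. Median depths before thinning were 15723.5 and 14828 UMIs in stromal and 14058 and 11511 in AT2-like cells. Unthinned, the shares of stromal cells with an Il6 UMI were 15.6% and 40%. The UMIs were uneven over cells: the 80 control cells richest in Il6 held 94.8% of its stromal UMIs and the 48 richest IL-1β cells 83.9%, and a single IL-1β cell had 301.

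Within the control library, Il6 was concentrated in the contractile-like cluster S4, led by Acta2 and Tagln among others. Its 86 cells, 10.8% of control stromal cells, held 67.9% of their Il6 UMIs. The level was 273 CPM (251 to 297) in S4, against 38.1 (32.9 to 43.9) in S0, the largest control cluster, led by Dio2 and Frmd5. The remaining control clusters of at least 50 cells were lower still, with 13.4 CPM in S5, 10.8 in S2 and 4.87 in S6. The 28 control cells of S9, also contractile-like, had only 17.5 CPM of Il6 (5.68 to 40.8, 5 UMIs). Their contractile markers summed to 5972 CPM, against 3113 CPM in the control cells of S4. By CPM, high Il6 was thus not shared by both contractile-like clusters. However, the control cells of S9 were low in other members too. Stat3, Il6st and Socs3 each stood at 10.5 CPM (3 UMIs) and Osmr at 3.50 (1 UMI). Their median depth was 6532.5 UMIs, against 21605.5 in the control cells of S4. At 4500 UMIs, 10.7% of them (2.27 to 28.2%) and 31.4% of S4 control cells (21.8 to 42.3%) had an Il6 UMI, with overlapping intervals. The control level of S4 was close to those of the IL-1β clusters S3 (310, 295 to 324) and S7 (283, 251 to 317), whose intervals it overlapped. The intervals do not cover the uneven spread over cells. The cell with 301 Il6 UMIs lay in S3, which held 1760, and S3 was not recomputed without that cell. In S1, the remaining large IL-1β cluster, Il6 stood at 126 CPM (111 to 144). The 17 IL-1β cells of S4 gave 169 CPM (135 to 210), and these cells also carried all 4 endothelial markers at a summed 429 CPM, beside 1.91 CPM in the control cells of S4. The part of that difference in the S4 values was not tested. Contractile markers summed to 696 CPM over control and 97.5 CPM over IL-1β stromal cells. Without S4 and the small contractile-like cluster S9, the log2 ratio of Il6 in stromal cells was 3.43 in place of 2.02, and without S3 it was 1.43. Il6 remained called higher in both cases.

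Lif encodes LIF, which signals through LIFR and gp130. Its stromal level was 15.4 CPM (13.3 to 17.6, 208 UMIs) in the control and 62.7 CPM (57.7 to 67.9, 595 UMIs) with IL-1β, a ratio of 4.08 (3.48 to 4.80). Thinned to 4500 UMIs, 4.27% of control and 17.6% of IL-1β stromal cells had a Lif UMI, against 0.831% and 2.08% of AT2-like cells. In the control, Lif was highest in S4 (31.5 CPM, 24.4 to 40.1) and S5 (30.6, 20.9 to 43.1), with overlapping intervals, and low in S2 (3.81) and S6 (6.95). In the IL-1β library S7 had the highest level, 159 CPM (136 to 185), while S3 (53.6) and S1 (46.3) overlapped in their intervals. These 3 IL-1β clusters of at least 50 cells were each above every control cluster of that size by interval, except that S1 (37 to 57.1) overlapped S4 and S5.

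Il11 encodes IL-11, known for its effects on fibroblasts. Its stromal level was 3.84 CPM (2.87 to 5.04, 52 UMIs) in the control and 109 CPM (103 to 116, 1039 UMIs) with IL-1β, a ratio of 28.5 (21.6 to 38.4). Most of the IL-1β signal lay in cluster S7, led by Mmp10, Crabp1, Areg and Mmp12, whose 53 cells were 11.1% of IL-1β stromal cells and held 73.1% of their Il11 UMIs. The level in S7 was 732 CPM (681 to 786), and 64.2% of its cells had an Il11 UMI at 4500 UMIs (49.8 to 76.9%). S3 followed at 45.2 CPM (39.8 to 51.1) and S1 at 9.68 (5.74 to 15.3). In the control the highest cluster was S6, led by genes that include Col11a1, at 14.6 CPM (9.04 to 22.3), whose interval overlapped that of S1. Without S7 the log2 ratio over stromal cells was 3.11 in place of 4.83, and without S3 it was 5.74, and Il11 was called higher in both cases. Il11 was itself among the genes that led S7, although it was not used for clustering.

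**Figure D1:**
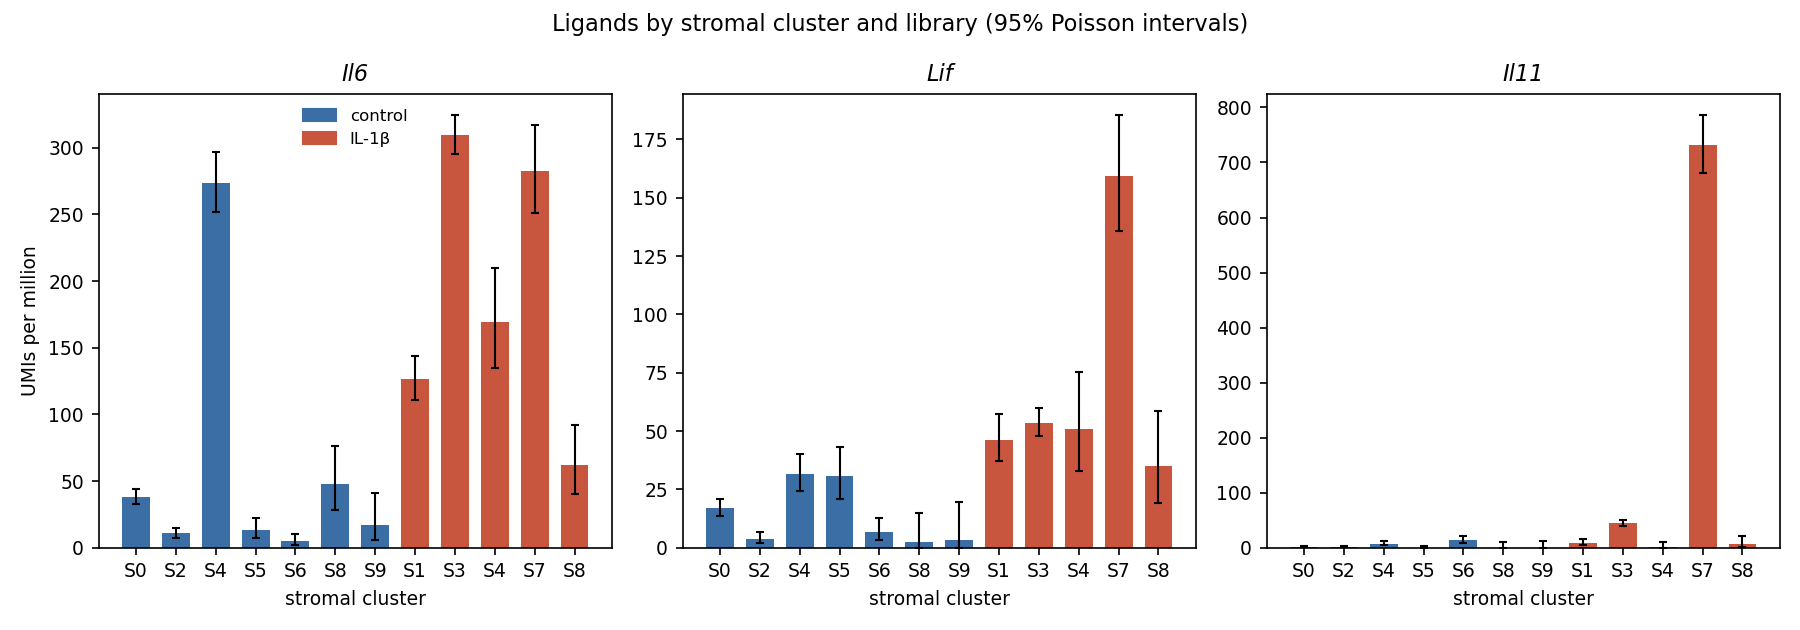
Bars give Il6, Lif and Il11 levels (UMIs per 1000000 UMIs, vertical axes from 0, scaled separately) in each stromal cluster with at least 15 cells of a library (horizontal axis), with 95% Poisson intervals; blue is control and red IL-1β. Il6 in control cluster S4 reached 273 CPM, near the 310 and 283 CPM of IL-1β clusters S3 and S7, whereas Il11 stood at 732 CPM in S7 and under 50 elsewhere.

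In epithelial cells the ligands were low, and their levels are set beside those that free stromal RNA gives. The collagen genes made by stromal cells, Col1a1, Col1a2 and Col3a1, gave AT2-like cells 1.84 to 2.59% of their stromal level in the control and 1.61 to 2.54% with IL-1β. Il6 in AT2-like cells stood at 6.79% of the stromal level in the control, well above the collagen range. With IL-1β it stood at 2.64%, just above that range. The Il6 level in AT2-like cells was 4.23 CPM (60 UMIs) in the control and 6.67 CPM (143 UMIs) with IL-1β, a ratio of 1.58 (1.16 to 2.17), which was not called. Il11 gave 2.25 and 4.11 CPM in AT2-like cells (32 and 88 UMIs), a ratio of 1.82 (1.2 to 2.82), not called, and these were 58.7% of the stromal level in the control and 3.75% with IL-1β. In DATP-like cells Il6 was at 3.35 CPM (1.67 to 5.99, 11 UMIs), 1.33% of the stromal level, where the collagens gave 1.78 to 2.18%. The part of stromal RNA in these Il6 and Il11 levels was not tested.

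Lif was the only member called in AT2-like cells (1 of 8 higher, 0 lower, beside 8.61% of 12565 tested genes higher and 4.7% lower), with a median log2 ratio of 0.42 over the 8 genes and 0.10 over all tested. It stood at 1.69 CPM (1.08 to 2.52, 24 UMIs) in the control and 4.81 CPM (3.92 to 5.83, 103 UMIs) with IL-1β, a ratio of 2.84 (1.81 to 4.64). Over the same cells the 6 macrophage markers summed to 11.8 CPM in the control and 39.6 CPM with IL-1β, with Adgre1 at 0 in both, the 6 matrix markers to 103 and 210 CPM and the 6 airway markers to 251 and 28.2 CPM. The macrophage sum was 35.3, 34.8 and 53.5 CPM in the IL-1β cells of E1, E2 and E3, where 5, 4 and 1 of the 6 markers had a UMI. In Lif these 3 IL-1β AT2-like clusters were alike, at 4.04, 5.79 and 5.16 CPM, with overlapping intervals. DATP-like cells had 7.0 CPM of Lif (4.44 to 10.5), overlapping the AT2-like interval. In the IL-1β library these levels were 7.67% and 11.2% of the stromal level, above the collagen range, and the part of stromal RNA or of these markers in the rise was not tested.

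Il6 was called higher in the AT1-marker clusters, together with Osmr, and Il6ra was called lower (2 of 8 higher and 1 lower, beside 5.68% of 10879 tested genes higher and 4.47% lower). Control cluster E6 had 2.96 CPM of Il6 (1.48 to 5.29, 11 UMIs) and IL-1β cluster E4 18.9 CPM (15.3 to 23, 99 UMIs), a ratio of 6.38 (3.42 to 13.2). In E4, 63 of 403 cells had an Il6 UMI before thinning, against 11 of 259 in E6. At 4500 UMIs the shares were 4.22% (2.48 to 6.67%) in E4 and 1.93% (0.63 to 4.45%) in E6, with overlapping intervals. The E4 interval also overlapped that of IL-1β AT2-like cells (3.14%, 2.38 to 4.06%). The 41 E4 cells richest in Il6 held 77.8% of the Il6 UMIs of E4. The E4 level was 2.83 times that of IL-1β AT2-like cells (2.17 to 3.68) and 7.48% of the stromal level, where the collagens gave 1.63 to 2.17%. A single cell held 20 of the 99 UMIs. That cell had 194 UMIs of the AT1 marker Ager and 128 of Sftpc. Of the matrix genes it had 88 UMIs of Sparc, 1 of Col1a2 and 0 of Col1a1 and Col3a1. Sparc was not particular to it: its level there was 2800 CPM, beside 2135 and 1379 CPM in the E4 cells ranked next by Il6 (4 and 3 UMIs). Without the cell that held 20 Il6 UMIs, the log2 ratio was 2.36 in place of 2.67, still called. The 6 macrophage markers summed to 28.2 CPM in E6 and 35.3 CPM in E4, with Ptprc at 0 in both, and the 4 mesothelial markers to 5.11 and 50.7 CPM, with Wt1 and Lrrn4 at 0 in both. Their part in the result was not tested. Lif (3.50 and 5.53 CPM) and Il11 (3.76 and 3.62 CPM) were not called between E6 and E4.

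**Figure D2:**
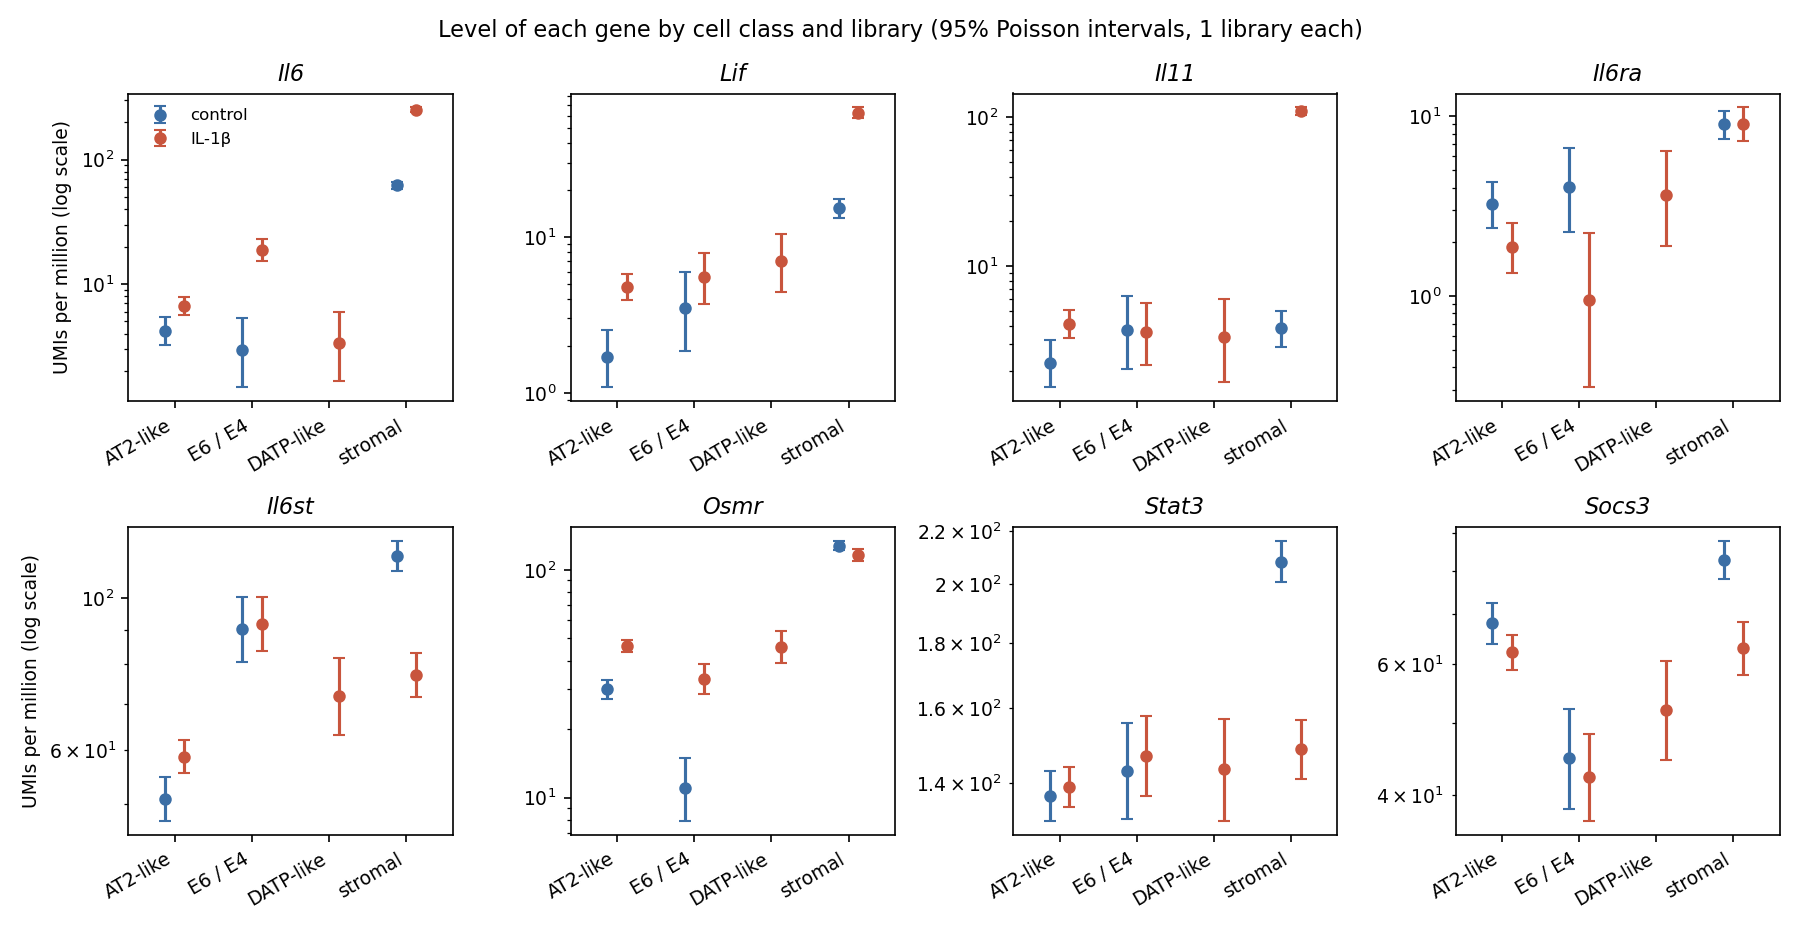
Each panel gives 1 gene in UMIs per 1000000 UMIs (log axis, ranges differ by panel) for AT2-like cells, AT1-marker clusters (E6 control, E4 IL-1β), DATP-like cells (IL-1β only) and stromal cells; points are single libraries and bars 95% Poisson intervals. Stromal cells of the IL-1β library lay above every other group for the 3 ligands, and the Stat3 levels of the 3 epithelial groups overlapped between 137 and 147 CPM.

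The receptor genes had another distribution. Il6ra, which sets whether a cell can bind IL-6 directly, was sparse everywhere. It stood at 9.01 CPM (7.48 to 10.8, 122 UMIs) in control and 9.06 CPM (7.24 to 11.2, 86 UMIs) in IL-1β stromal cells, a ratio of 1.01 (0.754 to 1.34). AT2-like cells had 3.24 CPM (2.37 to 4.32, 46 UMIs) and 1.87 CPM (1.33 to 2.54, 40 UMIs), a ratio of 0.576 (0.367 to 0.900) that was short of a call. Il6ra was called lower in E4 (0.953 CPM, 5 UMIs) than in E6 (4.03 CPM, 15 UMIs), with a ratio of 0.236 (0.0672 to 0.684), which rests on 20 UMIs and could not be tested under the same filter at resolution 2.0. DATP-like cells had 3.65 CPM (1.89 to 6.38, 12 UMIs), overlapping the AT2-like interval. Thinned to 4500 UMIs, Il6ra was found in 4.52% and 4.39% of stromal and in 1.14% and 0.617% of AT2-like cells, in that order of control and IL-1β.

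Il6st, the shared gp130 chain, was found in every class and was called in none. AT2-like cells had 50.9 CPM (47.2 to 54.7) in the control and 58.6 CPM (55.4 to 62) with IL-1β, a ratio of 1.15 (1.05 to 1.26). Clusters E6 and E4 were alike, at 90.1 and 91.7 CPM, with a ratio of 1.02 (0.884 to 1.17). Both were above the AT2-like level of their own library, by 1.77 times (1.55 to 2.02) and 1.56 times (1.41 to 1.74). Stromal cells had 115 CPM (110 to 121) in the control and 77.3 CPM (71.8 to 83.1) with IL-1β, a ratio of 0.67 (0.613 to 0.732), beside a median log2 ratio of -0.32 over all 12846 genes tested in stromal cells. With that median set to 0, the log2 ratio of Il6st was -0.26 in place of -0.58. Among control stromal clusters of at least 50 cells the level ran from 77.2 CPM in S2 to 193 in S5, and among IL-1β clusters from 42.4 in S7 to 119 in S1. S7, highest in Il11 and Lif, was thus the lowest of these in Il6st.

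Osmr, the chain through which oncostatin M signals together with gp130, had its highest levels in stromal cells, which held 77.6% of Osmr UMIs in the control library and 44.1% in the IL-1β library. It stood at 128 CPM (122 to 134) in control and 116 CPM (109 to 123) in IL-1β stromal cells. That ratio, 0.907 (0.840 to 0.979), had no stable direction: the log2 ratio of -0.14 became 0.18 with the median ratio set to 1, 0.09 with the mean of single-cell values and 0.14 without S3. In the epithelium both Osmr ratios were above 1. AT2-like cells had 30 CPM (27.2 to 33, 426 UMIs) and 46.4 CPM (43.6 to 49.4, 995 UMIs), a ratio of 1.55 (1.38 to 1.74), short of a call. E6 had 11 CPM (7.91 to 15, 41 UMIs) and E4 33.2 CPM (28.4 to 38.5, 174 UMIs), a ratio of 3.01 (2.13 to 4.34), which was called. In the control, E6 was thus below the AT2-like cells, at 0.367 of their level (0.260 to 0.507). In the IL-1β library E4 stood at 0.714 of the AT2-like level (0.604 to 0.840), an interval that did not overlap that of the control. DATP-like cells at 46 CPM did not differ from AT2-like cells beyond counting error. The share of cells with an Osmr UMI at 4500 UMIs was 3.09% in E6 and 14.6% in E4. Osmr levels in AT2-like cells were 23.5% and 40.1% of the stromal levels, far above the collagen range.

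**Figure D3:**
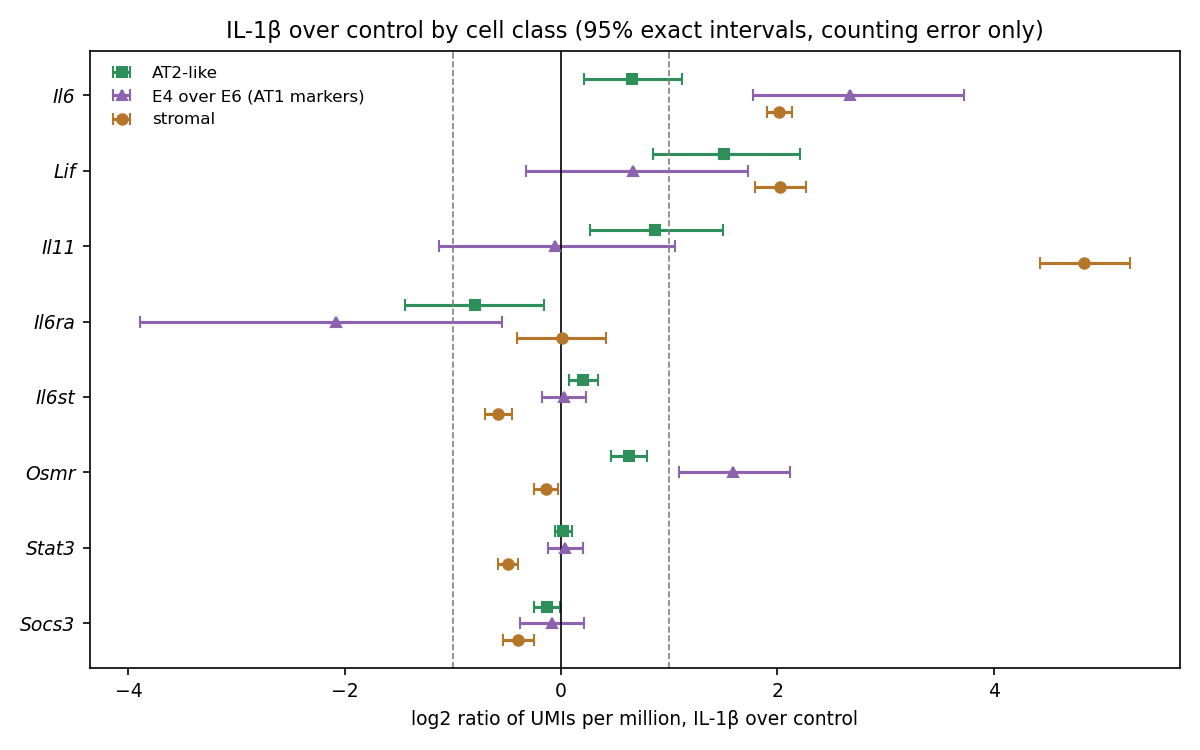
Points give the log2 ratio of IL-1β over control UMIs per 1000000 UMIs (horizontal axis) for each gene (vertical axis) in AT2-like cells, AT1-marker clusters and stromal cells, with exact 95% intervals for counting error; the solid line is no difference and the dashed lines 2-fold. Il11 in stromal cells is farthest to the right at 4.83, and Stat3 and Socs3 lie between the dashed lines in all 3 groups.

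Stat3, the transcription factor gene of the pathway, differed little between the main epithelial classes, with more spread between clusters. AT2-like cells had 137 CPM (131 to 143) in the control and 139 CPM (134 to 144) with IL-1β, a ratio of 1.02 (0.959 to 1.08), whose direction turned with scaling (log2 0.02, and -0.08 with the median ratio set to 1). E6, E4 and DATP-like cells had 143, 147 and 143 CPM. Among the IL-1β AT2-like clusters, E1 had 129 CPM (122 to 136) and E3 156 CPM (145 to 167), and the small control cluster of cycling cells had 101 CPM (81.6 to 123). Stromal cells had 208 CPM (201 to 216) in the control and 149 CPM (141 to 157) with IL-1β, a ratio of 0.714 (0.669 to 0.761), not called. Relative to the stromal median of all genes this was a log2 ratio of -0.16. By cluster, Stat3 stood at 215 CPM in S1, 131 in S3 and 110 in S7 of the IL-1β library, and at 240, 224, 251, 174 and 138 CPM in S0, S2, S5, S6 and S4 of the control. RNA levels do not report STAT3 phosphorylation, which was not measured in these libraries.

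Socs3, the feedback inhibitor, was called in no class. AT2-like cells had 68 CPM (63.8 to 72.4, 965 UMIs) in the control and 62.2 CPM (58.9 to 65.6, 1332 UMIs) with IL-1β, a ratio of 0.914 (0.841 to 0.994). E6 and E4 had 44.9 and 42.3 CPM, a ratio of 0.943 (0.768 to 1.16), and DATP-like cells 52.1 CPM (44.6 to 60.5). Stromal cells had 82.7 CPM (77.9 to 87.7, 1120 UMIs) and 63 CPM (58 to 68.2, 598 UMIs), a ratio of 0.761 (0.688 to 0.842), not called, and a log2 ratio of -0.07 relative to the stromal median. All 3 intervals lay below a 2-fold rise. At 4500 UMIs, 24.5% of control and 21.9% of IL-1β AT2-like cells had a Socs3 UMI, and 28.3% and 24.7% of stromal cells did. The promoter of the RefSeq Socs3 start, which lies inside the GENCODE gene, on chr11:117969367-117969616 (minus strand) held 1 match to the STAT motif TTCNNNGAA, present in 7.02% of all promoters, and the site is shown with 10 bases on each side.
Socs3: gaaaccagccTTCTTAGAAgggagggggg
The match begins at -154. None of the remaining member promoters held the STAT letters within 250 bases.

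Other genes known to respond to STAT3, many of which also respond to other inflammatory signals, are given beside Socs3. Cebpd, another such gene, was not analysed here. The list was chosen with earlier results of these data known, so its counts in each class are descriptions only. Of 13 tested in AT2-like cells 6 were called higher and 0 lower, beside 8.61% and 4.7% of all tested genes, with a median log2 ratio of 0.96 beside 0.10 over all tested genes. Fgl1, which encodes a secreted fibrinogen-like protein, went from 1.69 to 46.1 CPM (24 and 987 UMIs), a ratio of 27.2 (18.2 to 42.7). Reg3g, an antibacterial lectin, had 0 UMIs in the control and 91 with IL-1β, at least 20.1-fold higher when the control is set at the 3 counts that a count of 0 allows over the class. In the IL-1β library its level was similar in AT2-like cells (4.25 CPM), stromal cells (4.53 CPM) and E4 (3.62 CPM). The part of free RNA in the Reg3g levels was not tested. The kinase gene Pim1 went from 30.7 to 73.7 CPM (ratio 2.40, 2.16 to 2.67) and the acute-phase gene Hp from 573 to 1410 CPM (2.46, 2.40 to 2.52). Saa3, another acute-phase gene, and Timp1, a protease inhibitor, gave ratios of 5.81 and 2.84 in AT2-like cells. However, their AT2-like levels were 5.51% and 4.90% of the stromal ones in the control and 5.35% and 3.39% with IL-1β, above the collagen range, and the part of stromal RNA in them was not tested.

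In stromal cells 6 of 13 tested were called higher and 0 lower, beside 5.11% and 12.8% of all tested genes, with a median log2 ratio of 1.00 beside -0.32 over all tested genes. Saa3 rose from 10064 to 60205 CPM, 5.98 times, Timp1 from 842 to 3453 CPM, 4.10 times, and Hp from 1185 to 2508 CPM, 2.12 times. Reg3g (2 and 43 UMIs, ratio 30.7, 7.99 to 261) and Fgl1 (41 and 89 UMIs, ratio 3.10) were called at low counts. For Reg3g the IL-1β stromal level was close to that of AT2-like cells, as given above. For Fgl1 it was 9.37 CPM, 20.3% of the AT2-like level, and the part of AT2 RNA in it was not tested. Lrg1 was called in stromal cells (48.8 and 120.8 CPM). However, these levels were only 3.54% and 6.80% of the AT2-like ones, beside 3.57% and 6.12% for Sftpc and 3.45% and 6.2% for Sftpb. The part of AT2 RNA in the stromal Lrg1 level was not tested. Between E6 and E4, 4 of 12 tested were called higher, beside 5.68% of all tested genes: Saa3 (ratio 6.04), Timp1 (3.04), Hp (2.79) and Fgl1, which had 0 and 22 UMIs and was at least 5.20-fold higher. Saa3 and Timp1 in E4 stood at 3000 and 109 CPM, far below their stromal levels here as well, and the part of stromal RNA was not tested. Fgl1 in E4 stood at 4.19 CPM, beside 46.1 CPM in IL-1β AT2-like cells, and the part of AT2 RNA in it was not tested.

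**Figure D4:**
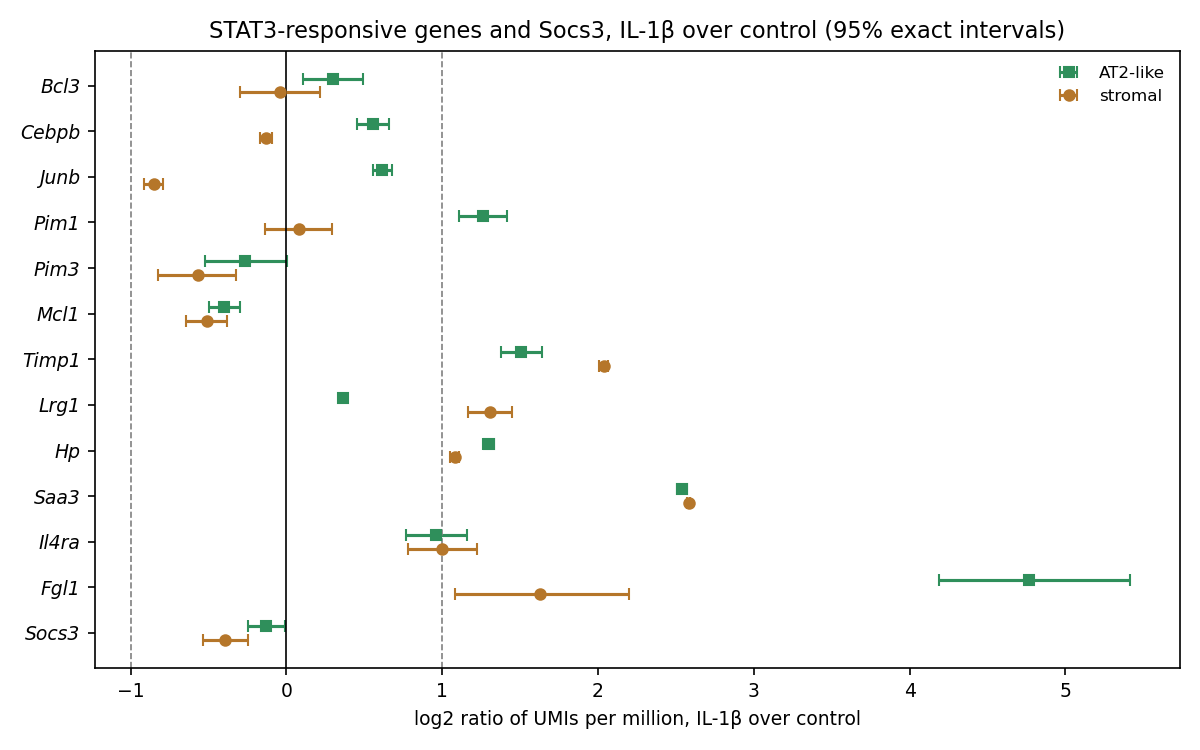
Log2 ratios of IL-1β over control UMIs per 1000000 UMIs (horizontal axis) for STAT3-responsive genes and, at the bottom, Socs3, in AT2-like cells (squares) and stromal cells (circles), with exact 95% intervals; Reg3g and Fgg, with 0 UMIs in control AT2-like cells, are left out. Fgl1 in AT2-like cells is farthest to the right at 4.77, and Socs3 lies left of 0 in both classes.

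Most of the remaining pathway genes that were called were lower. Of all tested genes, 12.8% were called lower in stromal cells, 4.7% in AT2-like cells and 4.47% between E6 and E4. In stromal cells 2 of 3 tested other ligand genes and 1 of 4 other receptor genes were called lower. So were 2 of 8 kinase and other STAT genes and 2 of 11 other inhibitor genes. In AT2-like cells the counts in this order were 1 of 4, 1 of 2, 0 of 8 and 0 of 11. Between E6 and E4 they were 0 of 3, 1 of 2, 0 of 8 and 0 of 11. Lifr, the receptor chain for LIF, went from 20.5 CPM (291 UMIs) to 3.69 CPM (79 UMIs) in AT2-like cells, a ratio of 0.180 (0.138 to 0.231), and from 5.65 to 2.67 CPM between E6 and E4 (0.473, 0.222 to 0.975). In stromal cells, where it stood at 32.8 and 28.1 CPM, Lifr was not called. Lif and its receptor gene were thus called in opposite directions in AT2-like cells. Il11ra1, the IL-11 receptor chain, was called lower in stromal cells, from 233 to 111 CPM (0.477, 0.445 to 0.512), where Il11 was higher. Its stromal log2 ratio of -1.07 stood beside a median of -0.32 over all tested genes. That call and the stromal calls named below were made without setting this median to 0. Il11ra1, Stat2 and Socs5, with stromal log2 ratios of -1.07, -1.03 and -1.08, passed the 2-fold limit by less than this median. They would thus be short of a call with the median set to 0. Ctf1 (-1.41) and Socs1 (-1.37) passed the limit by more than it. In AT2-like cells Il11ra1 was not called (39 and 32.9 CPM). Of 5 other receptor genes, 2, 4 and 2 passed the count filter in AT2-like cells, stromal cells and E6 with E4, and the called ones are those named.

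Among the other ligand genes, Ctf1, which encodes cardiotrophin 1, was called lower in stromal cells, from 15.7 to 5.90 CPM (ratio 0.377, 0.275 to 0.508). Ebi3, a subunit of IL-27, was called lower in AT2-like cells at 24 and 18 UMIs (0.497, 0.254 to 0.955). Osm, which encodes oncostatin M, the ligand of Osmr, had 0 UMIs in stromal and AT2-like control cells and 1 UMI in IL-1β stromal cells, so it was not detectable beyond the 3 counts that a count of 0 allows.

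No kinase or other STAT gene of 8 was called in AT2-like cells. In stromal cells Stat2, which carries interferon signals, was called lower, with a ratio of 0.489 (0.376 to 0.631), and Stat5a was called higher in E4 than in E6 at 39 and 11 UMIs. Of 11 other inhibitor genes 1 was called higher in AT2-like cells, where 8.61% of all tested genes were: Ptpn2, a phosphatase that acts on Janus kinases and STATs, went from 21.8 to 54.8 CPM (2.52, 2.22 to 2.86). In stromal cells Socs1 (0.386, 0.272 to 0.537) and Socs5 (0.472, 0.393 to 0.564) were called lower, and between E6 and E4 none of the 11 was called.

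The genes whose level followed each member most closely were taken over 15 groups of cluster and library with at least 50 cells, by Pearson's r of log2(CPM + 1). These groups share libraries and, in part, depth, and the values are descriptions. Il6 was most like Csf3, another cytokine gene (r = 0.90), Hmga2 (0.89) and Lif (0.88). Lif was most like Mmp9 (0.92), Sumf2 (0.91) and Stom (0.91), and Il11 like Crabp1 (0.96), Cck (0.95) and Zwint (0.90). Il6ra was most like Il1rap, a chain of the IL-1 receptor (0.96), Lrig1 (0.94) and Lamb1 (0.94). For Il6st the closest genes were Ccnl1 (0.96), Tcf7l2 (0.91) and Nfib (0.89), and for Osmr they were Map3k8, Nfkbiz and Trim47 (0.92, 0.92 and 0.91). Stat3 was closest to Nr3c1, Lrp6 and Specc1l (0.93, 0.92 and 0.90), and Socs3 to Pik3r2, Ier2 and Man1a (0.86, 0.85 and 0.85).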

How the data were processed

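Per the labels and the study's methods, the authors aligned 10x 3′ reads with Cell Ranger and deposited raw UMI counts per gene and barcode, with no normalization, for 1 control and 1 IL-1β library; the submitters' notes also name Scanpy 1.3.6 and the builds GRCm38 and mm9. Cells with over 500 and under 7000 genes and over 2000 UMIs were kept (2081 and 3058 after doublet scoring). The doublet caller marked 3 of 5142 cells (0.0583%) and is regarded as not having worked, and the libraries shared 11 barcodes. Cells were normalized, log-transformed and clustered with scanpy 1.11.5 (50 components, 15 neighbors, Leiden resolution 1.0), without the pathway genes, into 10 epithelial and 10 stromal clusters, named from marker lists. The naming rule was set after the clusters, but not the member values, had been seen. UMIs were summed by class and library, and the call code was tested on simulated counts. The genes, lists and tests were chosen with earlier results of these data known. Of the pathway lists, all members are named, and others only where called; with each member come the 3 genes most like it, of those with at least 500 UMIs. Gene spans are from GENCODE and promoters from RefSeq, GRCm38.p6. The smallest cell had 4605 UMIs, so thinning to 4500 kept all cells. Some genes of the pathway lists are not reported here.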

Additional observations from a re-analysis of the deposited data

Results flagged for a closer look

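Il6st and Osmr had ratios of IL-1β over control whose counting intervals left out 1 in opposite directions in 2 classes. Il6st had a ratio of 1.15 in AT2-like cells and 0.67 in stromal cells. Osmr had a ratio of 1.55 in AT2-like cells and 3.01 between the AT1-marker clusters E6 and E4, against 0.907 in stromal cells. With 1 library per condition the difference was not tested, and the stromal direction of Osmr depended on the scaling, as given above. The AT2-like log2 ratio of Il6st, 0.20, also depended on the processing. It moved out of its counting interval in 2 of 11 alternatives and fell to 0.06 at the lowest, without turning in direction.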

How the results depend on the processing

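Each condition had 1 library, so no spread between replicates could be had and no replicate could be left out. No paired analysis was possible because each group holds a single sample. The counts of genes called (1673 in AT2-like cells, 2295 in stromal cells, 1104 between E6 and E4) stayed within 1.5 times under every alternative run: no cell filter, other resolutions, Louvain, another seed, libraries clustered apart, removal of high doublet scores, other scalings, single-cell means and no count filter. Libraries clustered apart and removal of doublet scores left no AT1-marker comparison. The size of the DATP-like class, 311 IL-1β cells, also depended on the setting. It was 143 at resolution 2.0, 127 with libraries clustered apart and 123 with high doublet scores removed. At resolution 0.5 no cluster was named DATP-like. At resolution 2.0 and with libraries clustered apart, 14 and 24 control cells were DATP-like as well. Members called higher stayed at 3 in stromal cells, 1 in AT2-like cells and 2 in the AT1-marker clusters. Members called lower in the latter fell from 1 to 0 at resolution 2.0, where Il6ra was under the count filter. Of 295 recomputed member ratios 265 stayed within their counting interval, 30 moved out of it and 0 of those called turned in direction. Leaving out S3, S4 with S9, S7 or S8, pooling E4 with E6 and leaving out 1 E4 cell were chosen after seeing the data. Genes near 20 UMIs, such as Il6ra in E4 and E6, are limited by depth.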

Other observations

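Pairs of the 3 ligands in the same stromal cells are given beside the share of all stromal cells with each ligand. Thinned to 4500 UMIs, 122 of 478 IL-1β stromal cells had an Il6 UMI (25.5%), 84 a Lif UMI (17.6%) and 55 an Il11 UMI (11.5%). Lif and Il11 were found together in 23 cells, 27.4% of the Lif and 41.8% of the Il11 cells, above those shares. Il6 and Lif were found together in 28 cells, 23% of the Il6 and 33.3% of the Lif cells, a smaller excess. Il6 and Il11 were found together in 14 cells, 11.5% of the Il6 and 25.5% of the Il11 cells, as over all stromal cells. These differences were not tested. In the control library 66 of 796 stromal cells had an Il6 UMI (8.29%), 34 a Lif UMI (4.27%) and 12 an Il11 UMI (1.51%). Il6 and Lif shared 9 cells there, 13.6% of the Il6 and 26.5% of the Lif cells. Il11 shared none with either, which allows up to 3 cells, and 12 Il11 cells are too few to show an absence of overlap.

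Cluster S8 (17 control and 25 IL-1β cells) carried epithelial genes such as Cldn18 and Foxa2 beside stromal ones. Its 9 AT2 markers summed to 26385 CPM in control and 43369 CPM in IL-1β cells, and its 6 matrix markers to 3926 and 4104 CPM. Whether S8 held doublets of stromal and AT2 cells was not tested, and the doublet caller is regarded as not having worked. The IL-1β cells of S8 had 62.4 CPM of Il6, 34.9 of Lif and 7.49 of Il11, and 145 CPM of Osmr.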
